A study of Mus musculus with 12 samples.

Results

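H3K4me3 after inhibition of the cJun N-terminal kinases (JNK) was compared with H3K4me3 under solvent in Min6, an insulin-producing line derived from a mouse insulinoma that stands in for pancreatic β cells. The comparison used the H3K4me3 peak list of each treatment, with 19372 peaks after DMSO and 19032 peaks after the inhibitor (JNKi), which are 38404 of the 44996 peaks in the 4 lists of the series. They came from 4 of 12 samples, 2 biological replicates per treatment. The DMSO group received solvent and the JNKi group received SP600125, a JNK inhibitor, at 20 µM, both for 48 h, and 550000 cells entered each CUT&RUN reaction, in which an antibody-tethered nuclease cuts out the bound DNA. The remaining samples carried a cJun or a non-specific IgG antibody. Both groups are the same cell line.

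H3K4me3 is laid down at the start of genes by the SET1 and MLL (Kmt2) methyltransferases, which are drawn to unmethylated CpG dinucleotides in part by the CFP1 subunit Cxxc1, and it is removed by the Kdm5 demethylases. It marks promoters of active or poised genes, and broad H3K4me3 is known at genes that define a cell type. JNK is a stress-activated kinase that phosphorylates cJun, an AP-1 transcription factor.

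Each list combined both replicates of a treatment, and each peak carried the position and the −log10 p of both replicates, called first and second here because the lists carry no replicate number. A peak's rank within its list followed its merged −log10 p, which was the lower of the replicate values for 100% of peaks, and a percentile of 100 is the top of a list. The number of mapped reads behind each list is unknown, since the lists give no read totals. The study states a common sequencing target for all samples. The peaks covered 39.7 Mb under DMSO and 39.9 Mb under JNKi. A gene was said to carry the mark in a list if a peak lay within 3 kb of any of its transcription start sites (GENCODE vM21, GRCm38). With 1 list per treatment, presence or absence of the mark has no replicate error.

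The promoters of 6 genes show the kinds of sequence behind the classes described below. Each line gives 150 bases that end just before a start site, on the strand of the gene, from GRCm38, with CG dinucleotides in capitals, and none of these bases overlaps an annotated exon. The lines are 1700125H20Rik (chr11:85170254-85170403, + strand) and Eva1a (chr6:82041473-82041622, + strand), marked in DMSO only, Tmem45a (chr16:56886167-56886316, − strand) and Hist1h4n (chr13:21832197-21832346, − strand), marked in JNKi only, Cck (chr9:121495695-121495844, − strand), marked in both lists, and Ins1 (chr19:52264147-52264296, + strand), marked in neither.
1700125H20Rik: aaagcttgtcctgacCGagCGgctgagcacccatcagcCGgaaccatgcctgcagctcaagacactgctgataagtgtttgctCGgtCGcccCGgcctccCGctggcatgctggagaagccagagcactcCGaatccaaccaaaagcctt
Eva1a: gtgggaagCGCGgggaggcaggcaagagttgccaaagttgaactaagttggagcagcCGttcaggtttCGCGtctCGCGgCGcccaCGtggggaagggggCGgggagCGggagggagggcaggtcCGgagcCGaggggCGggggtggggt
Tmem45a: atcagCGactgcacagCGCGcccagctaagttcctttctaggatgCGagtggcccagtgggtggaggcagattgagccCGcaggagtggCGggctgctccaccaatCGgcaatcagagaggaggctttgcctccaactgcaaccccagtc
Hist1h4n: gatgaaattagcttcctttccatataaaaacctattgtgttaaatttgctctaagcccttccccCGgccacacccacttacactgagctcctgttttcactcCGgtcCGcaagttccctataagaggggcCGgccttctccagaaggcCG
Cck: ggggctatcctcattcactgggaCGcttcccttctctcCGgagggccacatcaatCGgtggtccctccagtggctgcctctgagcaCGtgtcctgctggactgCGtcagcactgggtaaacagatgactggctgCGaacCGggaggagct
Ins1: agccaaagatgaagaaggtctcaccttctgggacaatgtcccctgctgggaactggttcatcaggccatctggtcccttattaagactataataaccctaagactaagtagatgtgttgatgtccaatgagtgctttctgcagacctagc
The stretch held 8 CG dinucleotides at 1700125H20Rik, 14 at Eva1a, 7 at Tmem45a, 5 at Hist1h4n, 7 at Cck and 0 at Ins1. Across genes, the median in these 150 bases was 11 for genes marked in both lists, 7 for DMSO only, 4 for JNKi only and 1 for neither.

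Most marked promoters were marked under both treatments. Of 21938 protein-coding genes, 12979 (59.2%) carried H3K4me3 in both lists, 209 (0.953%) in DMSO only, 83 (0.378%) in JNKi only and 8667 (39.5%) in neither. The genes marked in both lists had broad, high peaks that covered a start site at 95.2% of genes in either list, with a median peak width of 2601 bp (DMSO) and 2652 bp (JNKi). The genes marked in 1 list had short, low peaks. The median width of their best promoter peak was 594 bp for DMSO only and 436 bp for JNKi only, its median percentile was 9.67 and 9.56 against 70.8 and 70.4 for genes marked in both, and it covered a start site at 54.1% and 32.5% of genes. An irreproducible discovery rate (IDR), the estimated chance that a peak fails to replicate, of at most 0.05 was reached by the best promoter peak of 10 of the 209 and 7 of the 83 genes. At 1 kb in place of 3 kb the 1-list classes held 193 and 68 genes. With both lists limited to an IDR of at most 0.05 they held 594 and 604 genes, and with lists of equal length 193 and 133, so the larger number in DMSO depended on how the lists were limited.

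**Figure D1:**
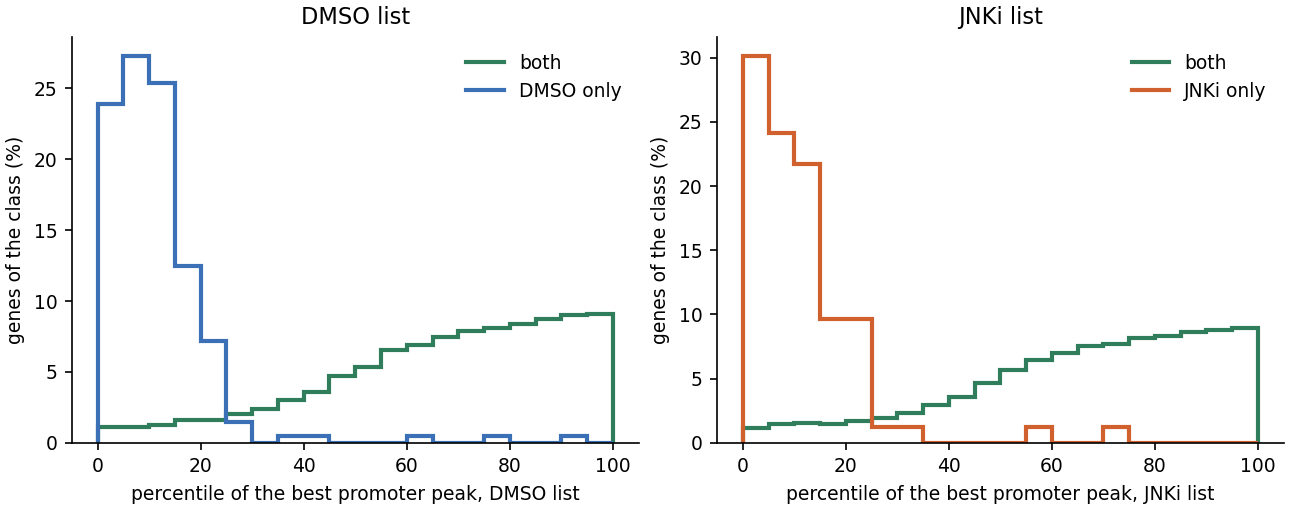
Percentile of the best promoter peak of each gene within its list (x axis, 100 is the top of the list) against the percentage of genes of a class (y axis), in steps of 5 percentiles, for the DMSO list on the left and the JNKi list on the right. Genes marked in both lists had median percentiles of 70.8 and 70.4, while genes marked in DMSO only or JNKi only lay at the low end, with medians of 9.67 and 9.56 and a few genes higher up.

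The few high values among 1-list genes lay at the edge of the 3 kb window. The DMSO-only genes with the highest percentiles were Prox2, a homeobox gene (90.3), Zfp869 (75.2), Gm867 (64.0), Gm10160 (43.9) and Pygl, the liver glycogen phosphorylase (35.7). Their peaks lay 2863 to 2992 bp from the nearest start site and overlapped a JNKi peak that ended just outside the window. Of the JNKi-only genes, Wfikkn1, a secreted protease inhibitor (73.5), and Gm14322 (57.7) were of the same kind. In all, 7 DMSO-only and 3 JNKi-only genes shared their peak with the other list in this way, and without them the highest percentile was 29.0 among 202 DMSO-only genes and 34.2 among 80 JNKi-only genes.

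The remaining named DMSO-only genes were Tgif2, a homeobox repressor in the TGFβ pathway, 1700125H20Rik and Eva1a, a regulator of autophagy. The Tgif2 peak (chr2:156840305-156841580) was 1147 bp wide in the first and 1276 bp in the second DMSO replicate, with −log10 p of 23.5 and 20.0, and the nearest JNKi peak was 19673 bp away. The Eva1a peak (chr6:82041970-82042892) was 921 and 899 bp wide, with −log10 p of 17.3 and 22.6, and the nearest JNKi peak was 57247 bp away. At 1700125H20Rik the replicates differed more, with widths of 681 and 250 bp and −log10 p of 31.6 and 17.9. These values lie in the third decile of the DMSO list, in which the median −log10 p was 15.2.

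The named JNKi-only genes without a shared peak were Gm1604a, Tmem45a, Cnmd, a cartilage glycoprotein gene, and the histone genes Hist1h2ap, Hist1h2br and Hist1h4n. The Gm1604a peak (chr17:7026195-7026463) was 259 and 266 bp wide with −log10 p of 33.1 and 32.9 and stood 627 bp from the start site. The Tmem45a peak (chr16:56886014-56886653) covered the start site, with widths of 640 and 364 bp and −log10 p of 19.1 and 16.3, and the nearest DMSO peak was 167443 bp away. The Cnmd peak (chr14:79660781-79661274) was 494 and 221 bp wide, with −log10 p of 18.5 and 15.1. The 3 histone genes shared a single peak of 236 bp (chr13:21831445-21831680), with −log10 p of 16.0 and 13.6 in the JNKi replicates. All of these peaks were narrow and low, as were the DMSO-only peaks.

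The classes also differed in promoter sequence, which the choice of genes did not use. In a window from 250 bases before to 50 bases after the outermost start site, the median CpG observed-over-expected ratio was 0.756 for genes marked in both lists, 0.542 for DMSO only, 0.363 for JNKi only and 0.195 for neither. A ratio of at least 0.6 was found at 71.3%, 42.6%, 26.5% and 9.43% of genes, against 46.4% of all protein-coding genes. Median GC content was 60.7%, 58.7%, 50.3% and 47.7%. Among genes whose best peak lay below the percentile 30 of its list, the share with a ratio of at least 0.6 was 54.4% of 1131 genes marked in both (by their DMSO peak), 43.6% of 204 DMSO-only genes and 27.5% of 80 JNKi-only genes. These shares are descriptions over genes, which are not replicates of a treatment.

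A cJun peak of the DMSO cJun list lay at the promoter of 12.9% of genes marked in both lists, 2 of 209 DMSO-only genes (0.957%), 5 of 83 JNKi-only genes (6.02%) and 45 of 8667 genes marked in neither (0.519%). In the JNKi cJun list the shares were 4.72%, 0.478%, 3.61% and 0.185%. Shares in the 1-list classes rest on at most 5 genes each.

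Gene groups were read against the background of 59.2% of genes marked in both lists. The writers, erasers and partners of the mark were marked throughout: 26 of 27 genes in both lists, among them Kmt2a, Kmt2b, Kmt2c, Kmt2d, Setd1a, Setd1b, Cxxc1, Men1, Wdr5, Kdm5a, Kdm5b and Kdm5c, with only the Y-linked Kdm5d in neither. All 26 JNK pathway genes were marked in both, including the kinases Mapk8, Mapk9 and Mapk10, the upstream kinases Map2k4 and Map2k7 and the phosphatases Dusp1, Dusp8, Dusp10 and Dusp16. All 24 immediate early genes, all 28 symbols of the unfolded protein response and all 16 housekeeping genes were marked in both lists as well.

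Other groups had a few exceptions. Among 26 AP-1 and ATF factors, 23 were marked in both, 1 in DMSO only, and Batf and Batf2 in neither. Among 41 cell cycle genes, Cdkn1c, a cyclin-dependent kinase inhibitor, was marked in DMSO only (343 and 295 bp, percentile 16.96) and the other 40 in both. Among 23 apoptosis genes, 20 were marked in both, Pmaip1 and Fas in neither, and the death receptor gene Tnfrsf10b in DMSO only (330 and 198 bp, percentile 6.63). Each of these 1-list peaks lay in the low range described above.

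β cell genes carried the mark under both treatments. Of 23 β cell factors, 22 were marked in both lists, and Hnf4a in neither. Of 34 insulin granule and secretion genes, 33 were marked in both, and Ins1 in neither. The nearest peak to the Ins1 start site was 772742 bp away in DMSO and 772661 bp away in JNKi. Ins1 is a close copy of Ins2. Whether this bears on its absence from the lists was not tested, and the absence remains uncertain. Ins2 lay under a peak of 4939 and 4898 bp in DMSO and of 5179 and 5144 bp in JNKi. Both JNKi widths were above both DMSO widths, but the log2 difference of 0.07 (SE 0.06) did not pass the limma test (adjusted p = 0.958).

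Genes known for their absence from β cells varied by group. Of 24 disallowed genes, which β cells normally keep off, 18 were marked in both lists and 6 in neither. Of 53 developmental regulators known as bivalent in stem cells, 16 were marked in both, 36 in neither and En2 in DMSO only. No Hox cluster gene of 39 was marked in either list, and 2 of 1135 olfactory receptors were marked in both. Ribosomal protein genes were marked in both at 81 of 84 and zinc finger genes (Zfp) at 336 of 394. The 6 histone cluster genes marked in JNKi only, of 67, were the largest JNKi-only number among the groups examined, against 0.378% of all genes. They shared 2 peaks of 236 and 294 bp with an IDR of 0.0898 and 0.282. At 1 kb, 3 histone cluster genes were JNKi only, which need not all be among these 6. The shared peaks lay within 1 kb of Hist1h4n (516 bp) and Hist1h4m (475 bp) and farther from the others. With an IDR of at most 0.05 for the JNKi peak the number was 0. With that limit on both lists, 7 were marked in JNKi only and 4 in DMSO only.

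**Figure D2:**
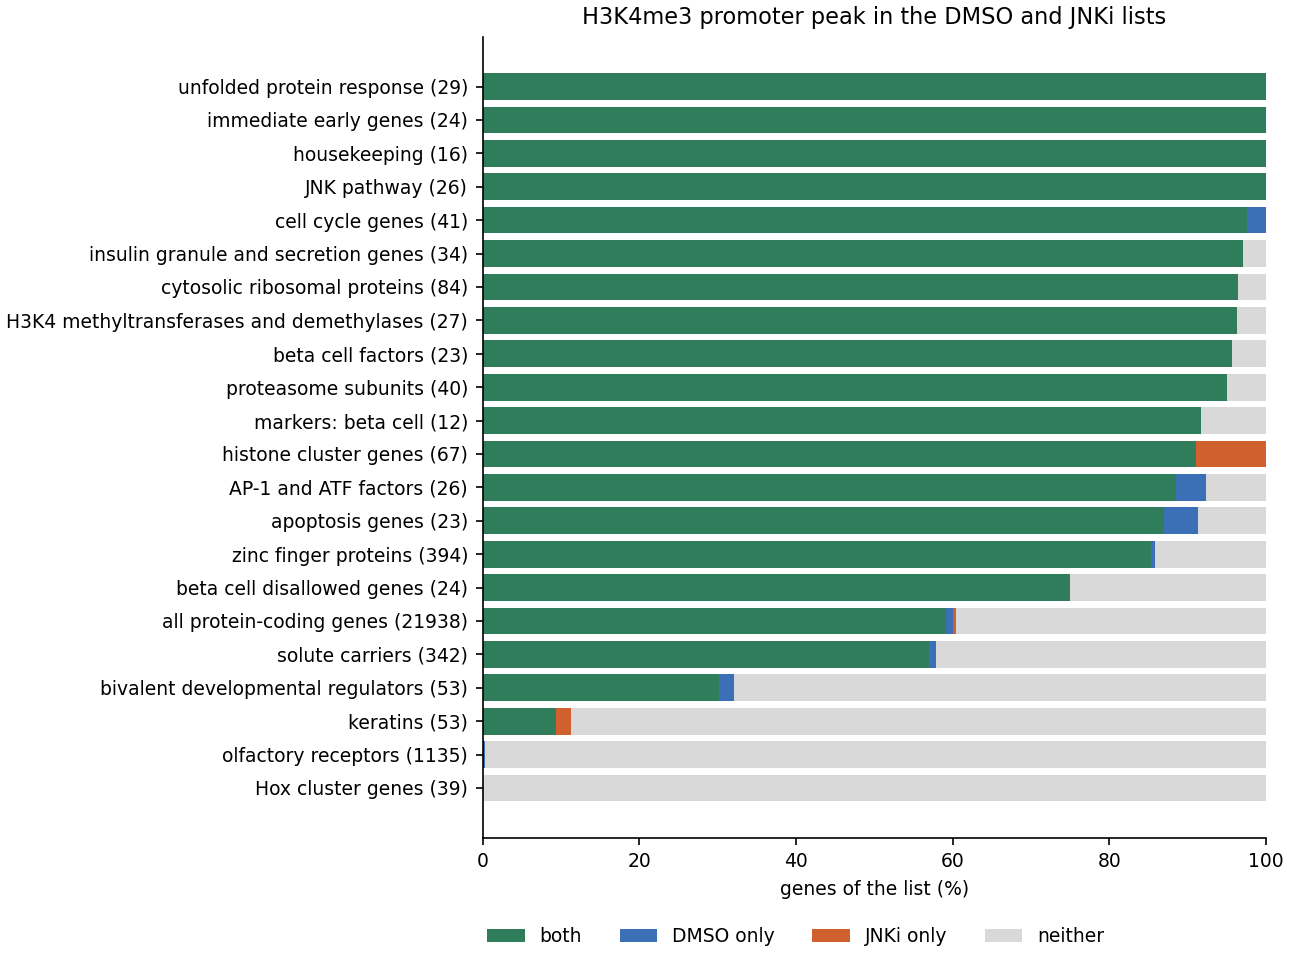
Share of the genes of each group (x axis, %, group size in parentheses) whose promoter carried H3K4me3 in both lists, in DMSO only, in JNKi only or in neither. Unfolded protein response, immediate early, housekeeping and JNK pathway genes were marked in both lists throughout, Hox genes in neither, and the visible JNKi-only shares are those of histone cluster genes (6 of 67) and keratins (1 of 53).

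The label of the cells was checked against markers. Of 12 β cell markers, 11 were marked in both lists, with Ins1 in neither. The markers of δ cells (0 of 2), endothelium (0 of 5) and immune cells (1 of 6) were nearly all unmarked, and acinar (2 of 8), ductal (3 of 6), fibroblast (1 of 5), hepatocyte (2 of 4) and muscle (1 of 4) markers were marked in part. Of 6 α cell markers, 4 were marked in both lists, including Gcg, the glucagon gene, 1 in DMSO only and 1 in neither. The median percentile of the α cell markers was 36.9 in DMSO and 29.2 in JNKi. Among their 4 matched peaks, 1, at Gcg, was higher and 0 lower in score without overlap, against 16.4% and 19.5% of all matched peaks. The Gcg peak had −log10 p of 4.31 and 12.4 in DMSO and of 30.6 and 21.4 in JNKi, while its widths were 1587 and 1498 bp in DMSO and 1432 and 1283 bp in JNKi. The Gcg peak was also narrower in JNKi without overlap, and neither difference passed limma. In width, 2 of the 4 α cell peaks were wider and 1 narrower, against 19.8% and 14.5% of all matched peaks.

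Peak width was then compared at peaks present under both treatments. Overlap of at least 1 bp linked 18093 DMSO peaks (93.4%) to JNKi peaks, and 17494 peaks had a single partner in each direction and are called matched. Their median width was 1849 bp and 1896 bp in the first and second DMSO replicate and 1958 bp and 1848.5 bp in the JNKi replicates. The JNKi mean was 30.75 bp above the DMSO mean, the values of the groups overlapped, and an exact two-sided permutation test gave p = 1 (with 2 samples against 2 the smallest possible p is 0.33). The difference was −24.0 bp without the first JNKi replicate and 85.5 bp without the second. The JNKi replicates differed from each other by more than the treatments did.

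The spread between replicates was as large as that between treatments. The median absolute log2 width difference at a matched peak was 0.0997 between the DMSO replicates, 0.111 between the JNKi replicates and 0.104 to 0.110 between a DMSO and a JNKi replicate. Of the matched peaks, 83.9% differed between treatment means by less than 0.25 on the log2 scale, and 178 (1.02%) differed by more than 2-fold.

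**Figure D3:**
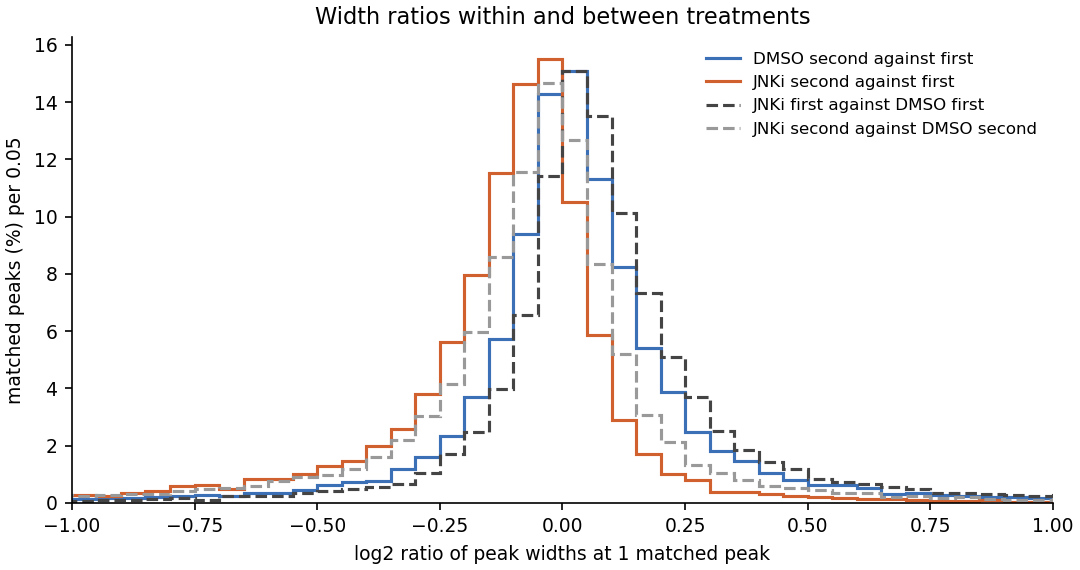
Distribution over 17494 matched peaks of the log2 ratio of peak widths (x axis) in steps of 0.05 (y axis, % of peaks), within treatments (solid lines) and between treatments (dashed lines). The 4 curves overlap: the median ratio was 0.02 for the second against the first DMSO replicate, −0.08 for the second against the first JNKi replicate, 0.06 between the first replicates and −0.04 between the second replicates.

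In limma's moderated test on log2 width, 0 of 17494 peaks (0%) passed an adjusted p of 0.05, and 1027 (5.87%) had an unadjusted p under 0.05, of which 576 were wider and 451 narrower in JNKi. The smallest adjusted p was 0.267. The median 95% interval reached 0.27 to either side on the log2 scale, without adjustment for the number of peaks. Both JNKi widths lay above both DMSO widths at 3459 peaks (19.8%) and below them at 2533 peaks (14.5%). The split depended on scale: at promoters, the count of 2456 wider and 1875 narrower genes became 1767 and 2814 once each replicate was centred on its median.

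The largest width differences between treatments lay at low-ranked peaks. At an intergenic peak on chromosome 19 (chr19:24242330-24242610 in DMSO), both DMSO replicates were 214 bp wide and the JNKi replicates 1377 and 1072 bp, a log2 difference of 2.51 (SE 0.15, limma adjusted p = 0.267). Inside Cx3cr1, a chemokine receptor gene, the peak was 232 and 244 bp wide in DMSO and 972 and 924 bp in JNKi, a difference of 1.99 (SE 0.07, adjusted p = 0.267). At the promoter of Cnih2, an AMPA receptor auxiliary subunit gene, it was 452 and 549 bp against 2008 and 1767 bp (adjusted p = 0.292). The other wider peaks named by the rule lay inside Fam220a and 9330182L06Rik, at the promoter of Zfp949 and at intergenic places on chromosomes 11 and 17. Their log2 differences reached at most 2.35.

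The largest difference in the other direction was inside Meis2, a homeobox gene, where the peak was 1274 and 1764 bp wide in DMSO and 252 and 290 bp in JNKi, a log2 difference of −2.47 (SE 0.20, limma adjusted p = 0.298). At Sntb1, a syntrophin gene, the promoter peak was 1050 and 1326 bp wide against 269 and 191 bp. At Ppp6r1, a phosphatase subunit gene, it was 2732 and 2810 bp against 816 and 470 bp (adjusted p = 0.399). Promoter peaks at Stambpl1, Efs, Spata18 and Dsp and a peak inside Col20a1 were narrower by 2.11 to 2.35 on the log2 scale. These 16 peaks had ranks of 12855 to 18953 under DMSO and 13366 to 18927 under JNKi, and none of these differences passed the test.

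Some peaks were joined in 1 list and split in the other. The lists held 341 places where peaks did not pair singly, with 599 DMSO and 453 JNKi peaks. The JNKi list had fewer peaks in 235 of these places and the DMSO list in 92. The bases covered changed little, with a median log2 difference of 0.09, and by more than 2-fold in 1 place. Pdx1, a master factor of β cells, was 1 JNKi peak of 13850 bp and 2 DMSO peaks that covered 12982 bp (chr5:147266758-147280607). At Cck, the gene of the peptide hormone cholecystokinin, 3 DMSO peaks covered 9685 bp and 2 JNKi peaks 9932 bp (chr9:121486255-121496408).

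The broadest peaks of both lists were the same 5 places in the same order. Pax6, a factor of islet cell identity, had the broadest peak, 23064 bp in DMSO and 23050 bp in JNKi. It was followed by an intergenic domain on chromosome 15 (18291 and 20568 bp), Ero1lb, an oxidase of the endoplasmic reticulum (17317 and 17545 bp), Isl1, an islet factor (16479 and 16839 bp), and Cdkn2c, a cyclin-dependent kinase inhibitor (15397 and 15495 bp). The highest-ranked peak of both lists was at Phf23, with −log10 p of 863 and 846 in DMSO and 1082 and 1011 in JNKi. Ppp1r15b, Calm3 and Cd164 were also among the top 5 of both lists, together with Dpf2 in DMSO and Sec63 in JNKi, which ranked 164 and 15 in the other list.

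Ranks within the lists were compared next. The merged −log10 p of matched peaks had a Spearman's rho of 0.874 between lists, a description over 17494 peaks from the same cells. The median shift was 3.93 percentiles, and 839 peaks (4.80%) shifted by more than 20. Between single replicates rho was 0.896 within DMSO, 0.920 within JNKi and 0.889 to 0.935 between treatments. Of the top decile of the DMSO list, 73.7% of 1874 matched peaks were in the top decile of the JNKi list. Of the 1000 highest DMSO peaks, 662 overlapped one of the 1000 highest JNKi peaks.

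The limma test was run on normal scores, in which the ranks of the −log10 p among matched peaks are mapped to a standard normal scale in each replicate. It called 0 of 17494 peaks (0%) at an adjusted p of 0.05, with 838 (4.79%) at an unadjusted p under 0.05 and a smallest adjusted p of 0.190. The median 95% interval reached 0.38 score units to either side. Both JNKi scores lay above both DMSO scores at 16.4% of peaks and below them at 19.5%.

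The largest rank differences were carried by wide peaks with a very low −log10 p in 1 or more replicates. At Srsf2, a splicing factor gene, the −log10 p was 4.99 and 3.87 in DMSO against 699 and 505 in JNKi, a score difference of 4.49 (SE 0.28, limma adjusted p = 0.452), while the widths were 7837, 6968, 6356 and 5888 bp in the same order. At Ahcyl1, a regulator of calcium release, it was 6.10 and 5.31 against 605 and 502 (adjusted p = 0.190). In the other direction, Foxp1, a forkhead factor gene, had 576 and 470 in DMSO against 5.29 and 6.80 in JNKi (adjusted p = 0.558), with widths of 6690, 6883, 7080 and 6973 bp. G3bp2, a stress granule gene, had 416 and 333 against 6.63 and 6.41 (adjusted p = 0.452). The other named peaks with a higher score in JNKi included those at Gnao1, Atp2a2, Gcat and Oxa1l, and those with a lower score were at Derl2, Atad5, Tsr3, Txndc11, Bsn and Nin.

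The 16 peaks with the largest score differences without overlap, 8 in each direction, were all at least 2000 bp wide in every replicate, and each had a −log10 p under 20 in at least 1 replicate. Their widths differed between treatments by at most 0.60 on the log2 scale. In DMSO, 314 of 7909 peaks of at least 2000 bp had a −log10 p under 10 in either replicate and 15 in both. In JNKi these numbers were 306 of 8083 and 9, and the low value was in the second replicate alone at 254 peaks and in the first alone at 43. The cause was not tested. Since a merged value is the lower one, such peaks fell to the bottom of their list: the Cck peak had −log10 p of 505 and 436 in DMSO, which gave rank 761, and of 536 and 3.998 in JNKi, which gave rank 18712. Kmt2d, a MLL-family methyltransferase gene, had 887 and 4.60 in DMSO (rank 18680) and 997 and 826 in JNKi (rank 7).

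**Figure D4:**
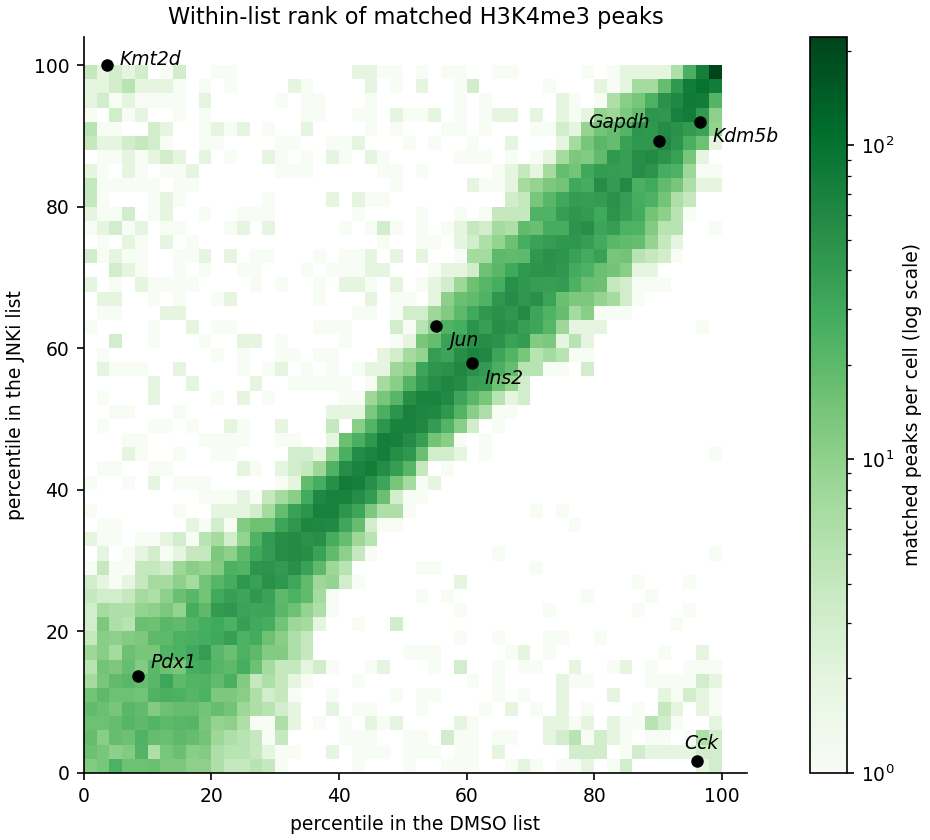
Percentile of matched H3K4me3 peaks in the DMSO list (x axis) and in the JNKi list (y axis), in cells of 2 by 2 percentiles coloured by the number of peaks on a log scale, with 7 genes placed by their best promoter peak in each list. Most peaks follow the diagonal, and a thin scatter at the left and lower edges holds peaks whose rank differed widely, such as Kmt2d (3.57 in DMSO, 99.97 in JNKi). Cck (96.1 and 1.67) was placed at the lower edge from peaks without a single partner, which are not among the matched peaks.

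Without the 642 matched peaks that were at least 2000 bp wide with a −log10 p under 20 in the same replicate, a filter chosen after seeing the data, limma called 0 of 16852 peaks, with 981 at an unadjusted p under 0.05. Zfp777, a zinc finger gene, and Gm5535 were then among the peaks with the largest score differences. Zfp777 still had a low value in 1 replicate, with −log10 p of 363 and 403 in DMSO and 356 and 6.399 in JNKi, and Gm5535 had 162 and 136 against 4.06 and 142. The next 3 genes were low in both lists. Bcar1, an adaptor of integrin signalling, had −log10 p of 3.75 and 4.17 under DMSO against 25.3 and 15.8 under JNKi at a peak inside the gene, a difference of 1.80 score units (SE 0.15, adjusted p = 0.840). St14, a membrane serine protease gene, had 17.7 and 18.5 in DMSO against 4.69 and 3.998 in JNKi at its promoter, a difference of −1.61 (SE 0.11, adjusted p = 0.840). H2-Q10, a histocompatibility gene, had 26.9 and 14.6 against 3.89 and 4.25.

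Genes of the JNK pathway and of the mark's own machinery were read from their best promoter peak. Mapk8 lay at percentile 69.1 in DMSO and 73.1 in JNKi, Mapk9 at 82.2 and 68.0, and Mapk10 at 72.5 and 80.5. Jun, the gene of cJun, had −log10 p of 181 and 126 in DMSO and 263 and 207 in JNKi, a score difference of 0.20 (SE 0.10) with no overlap between treatments, and widths of 4382, 4289, 4802 and 4171 bp. The score difference did not pass limma, and 16.4% of all matched peaks were higher in this way. Among 21 matched peaks at AP-1 and ATF factors, 6 were higher and 6 lower in score without overlap. Kdm5b, a H3K4 demethylase gene, lay at 96.6 and 92.0, and Setd1a, a catalytic subunit of SET1 complexes, at 97.7 and 97.6. Gapdh lay at 90.1 and 89.3 and Actb at 56.2 and 59.0. Of 25 matched peaks at genes of the H3K4 machinery, 2 were wider and 5 narrower without overlap between treatments, and of 25 at JNK pathway genes also 2 and 5, against backgrounds of 19.8% and 14.5%. The wider ones in the H3K4 machinery were at Kdm2b and Kdm5a, and the narrower ones at Kmt2d, Kdm1b, Kdm6a, Wdr82 and Hcfc1. Apart from Kmt2d (−0.22), these 7 differences lay between −0.08 and 0.09 on the log2 scale.

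Dusp10 encodes a phosphatase that acts on JNK. Its promoter peak (chr1:184032468-184040230) was 7609 and 7572 bp wide in DMSO and 5484 and 5532 bp in JNKi, a log2 difference of −0.46 (limma adjusted p = 0.383). It passed the test when width was fitted in bp, with a difference of −2082.5 bp and an adjusted p of 0.037. Its −log10 p was 12.1 and 13.0 in DMSO and 568 and 5.99 in JNKi.

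Width differences of other groups were described by counts, beside 19.4% wider and 14.8% narrower among all 12684 genes with a matched promoter peak. After centring, these were 1767 and 2814 genes. At ribosomal protein genes, 7 of 72 matched promoter peaks were wider and 19 narrower in JNKi without overlap, with a median log2 difference of −0.05 against 0.01 over all 12684 genes with a matched peak. After centring, 4 were wider and 27 narrower. Of 29 annotated genes for the 28 unfolded protein response symbols, 3 had a wider and 9 a narrower peak, and 2 and 12 after centring. Of 16 bivalent developmental regulators, 2 had a wider and 6 a narrower peak, among them Dlx1, a homeobox gene, with 1259 and 1228 bp in DMSO and 976 and 779 bp in JNKi. After centring the bivalent counts were 2 and 8. Of 21 at AP-1 and ATF factors, 1 was wider and 6 narrower (0 and 8 after centring), among them Fosl1, a partner of cJun, with 1839 and 1874 bp in DMSO and 1555 and 1595 bp in JNKi. At 330 zinc finger genes, 86 were wider and 36 narrower, but 60 and 55 after centring. At 19 apoptosis genes, 7 were wider and 2 narrower, but 4 and 5 after centring. No peak of these groups passed the limma test on log2 width.

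Histone cluster genes were described by peak, since neighbouring genes share peaks. Their 43 genes with a matched peak lay at 22 peaks, of which 8 were wider and 0 narrower in JNKi, and 10 were higher and 0 lower in score, without overlap between treatments. The background over all matched peaks was 19.8% wider and 16.4% higher. After centring on each replicate's median, 6 were wider and 0 narrower. The peak shared by Hist1h2ab and Hist1h3b was 555 and 964 bp wide in DMSO and 1917 and 1817 bp in JNKi. The peak of Hist1h2bb and Hist1h3c was 1683 and 1212 bp against 3050 and 2144 bp, with −log10 p of 29.4 and 29.2 against 60.7 and 59.9. The peak of Hist1h1t and Hist1h4c had −log10 p of 8.46 and 6.71 against 21.5 and 23.5.

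None of the 22 histone peaks passed limma (smallest adjusted p = 0.515 for width and 0.883 for score). With both lists limited to an IDR of at most 0.05, the peak at Hist1h4i passed for width (log2 difference 1.90, limma adjusted p = 0.0179). Without that limit it had no single partner, as 3 DMSO peaks covered 3274 bp where 1 JNKi peak covered 4725 bp. The log2 width difference was above 0 at 21 of 22 peaks, with Hist2h2aa1 at −0.08, and at 14 to 22 when a replicate was left out. The score difference was above 0 at 19 peaks, and at 14 to 19 when a replicate was left out. The lowest count for width was without the first JNKi replicate, where the median difference was 0.03 against −0.03 over all matched peaks. Core histone genes are near-identical copies, so their peaks are uncertain, and several genes share each peak.

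**Figure D5:**
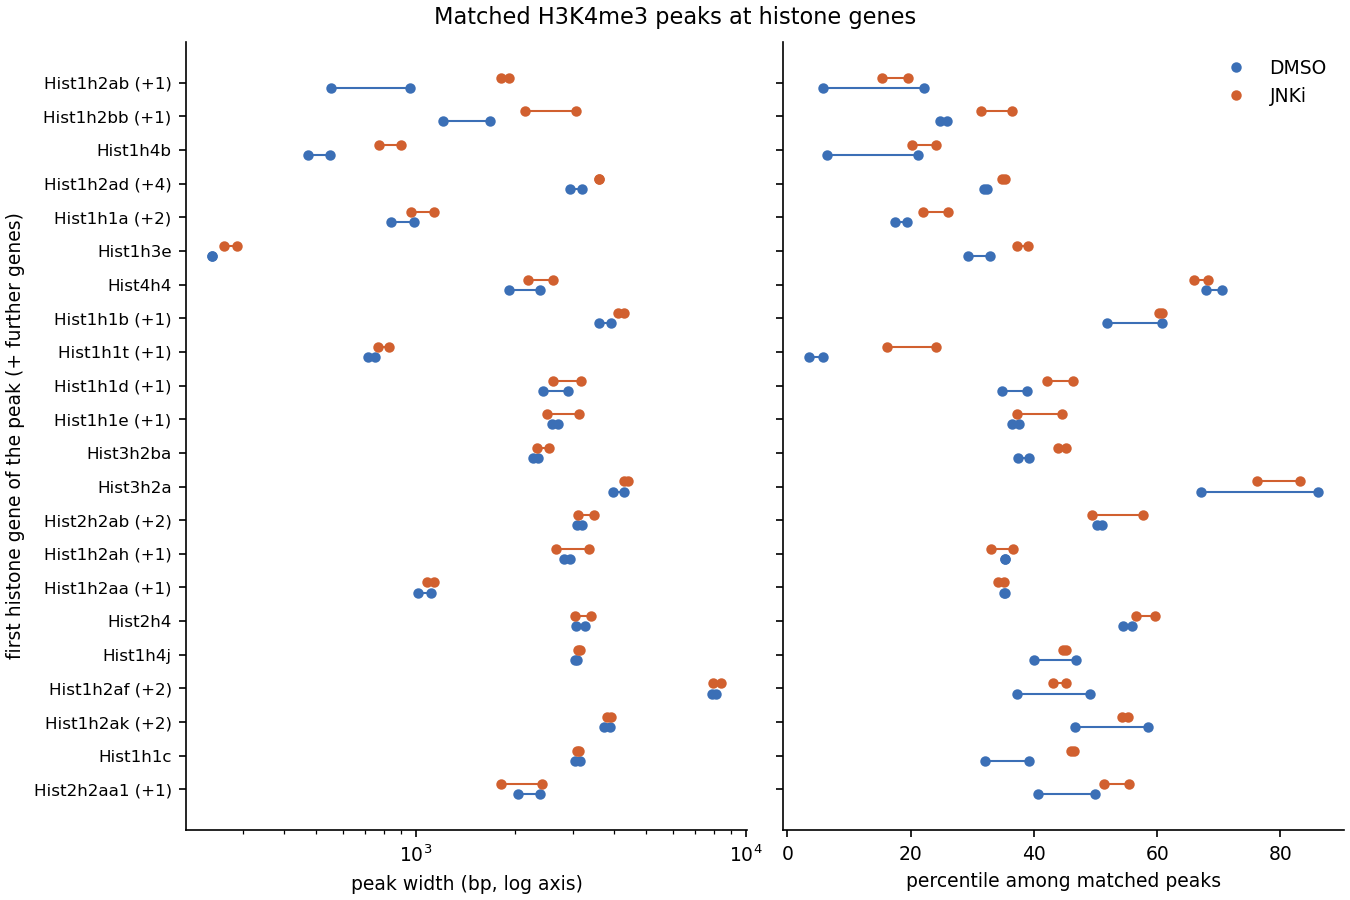
Width in bp on a log axis (left) and percentile of the −log10 p among matched peaks (right) for the 22 matched peaks at histone cluster genes, each named by its first gene, with 1 point per replicate and a line joining the replicates of a treatment. JNKi points lie to the right of both DMSO points at 8 peaks for width and 10 peaks for percentile, and no peak shows the reverse.

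Peaks without a partner lay low in each list, as did many peaks with a partner. There were 1279 (6.60%) in DMSO and 1085 (5.70%) in JNKi, with a median width of 498 and 478 bp and a median percentile of 7.71 and 7.73. The highest-ranked of them stood at rank 13010 in DMSO and 12232 in JNKi. A protein-coding promoter lay within 3 kb of 25.7% and 17.3% of them, against 69.8% of partnered peaks in both lists.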

How the data were processed

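CUT&RUN with an H3K4me3 antibody was analysed in 4 samples of Min6 cells, 2 biological replicates after DMSO and 2 after SP600125. The authors trimmed reads with Trimmomatic, aligned them to GRCm38 with Bowtie2 2.4.2, removed low-quality alignments (mapping quality under 30) with SAMtools 1.16, called peaks per replicate against IgG with MACS2 2.2.7.1 and combined the replicates by IDR, with versions taken from the submitters' processing notes. The deposited lists give, per peak and replicate, the start, the end and a −log10 p-value, and an IDR score. The deposited scores are −log10 values. The lists give no read totals, so no counting error can be given.

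The treatment lists were matched by an overlap of at least 1 bp. Log2 replicate widths and normal scores of the ranks of the −log10 p were tested over all peaks with a single partner by limma 3.58.1 in R 4.3.3, with Benjamini-Hochberg adjustment and a threshold of 0.05, and tested on simulated data. Promoters came from GENCODE vM21 within 3 kb of a start site, with pysam 0.24.0, networkx 3.6.1, SciPy 1.17.1, pandas 2.3.3, numpy 2.4.6 and matplotlib 3.10.9 under Python 3.11.15. With 1 merged list per treatment, promoter classes were not tested.

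The members and gene lists were chosen with earlier results of these data known. Named were the 8 genes of each 1-list class with the highest percentile, the 8 peaks in each direction with the largest width or score difference among those whose replicates did not overlap between treatments, since none passed the threshold, the 5 broadest and the 5 highest peaks of each list, and the exceptional or defining members of the gene lists. Further members with values were named after their values were seen. Results for some genes chosen by these rules are not reported here.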

Additional observations from a re-analysis of the deposited data

How the results depend on the processing

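No paired analysis was possible because the replicate columns carry no replicate number. Why these values moved was not tested. The count of peaks called for width was 10 among 12997 peaks with an IDR of at most 0.05 in both lists (7 wider, and 3 narrower, among them Gm13814 and Per1, where the 2 DMSO peaks covered 6331 bp against 6304 bp for the 2 JNKi peaks) and 1 with width in bp (Dusp10), against 0. For rank it was 1 with the IDR limit (Dusp8) and 3 with a variance trend and robust fit (Ahcyl1, Ankrd50 and G3bp2). DMSO-only genes numbered 594 with the IDR limit on both lists and 10 with the limit on the list that held the peak. The JNKi-only numbers were 604 and 7, and 133 with lists of equal length. The difference of median widths, an alternative chosen after seeing the data, ranged from −24.0 bp to 85.5 bp with a replicate left out, and was −24.0 bp without the first JNKi replicate. With the IDR limit, the genes marked in both lists numbered 14 for β cell factors, 21 for granule genes, 18 for the unfolded protein response, 10 for bivalent regulators, 2 for α cell markers, and 1 each for the Cck group, olfactory receptors and hepatocyte markers, and 0 for fibroblast markers. At 1 kb or with a peak over the start site there were 1 acinar, 1 hepatocyte, 0 immune, 0 fibroblast and 0 muscle markers, and by peak midpoint 1 acinar and 0 immune markers. Of 135 alternative values for the 16 width peaks, all 135 kept their direction and side of the threshold, as did 158 of 160 for the rank peaks. These peaks were chosen for large differences without overlap between treatments. Their direction was largely fixed by that choice, so its persistence is no added support. Of 128 values for the classes of the 16 named 1-list genes, 85 were unchanged and 43 moved.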

Other observations

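H3K4me3 was also counted at other gene types, most of whose genes were marked in neither list. Of 5854 lincRNA genes, 839 (14.3%) carried the mark within 3 kb in both lists, 37 in DMSO only and 26 in JNKi only. Of 2959 antisense genes, 952 (32.2%) were marked in both, 34 in DMSO only and 23 in JNKi only. Of 9940 processed pseudogenes, 384 (3.86%) were marked in both, 28 in DMSO only and 39 in JNKi only. Small RNA genes often lie inside other genes, and 389 of 2202 miRNA genes (17.7%) and 228 of 1507 snoRNA genes (15.1%) were marked in both. The DMSO-only and JNKi-only numbers were 20 and 9 for miRNA genes and 4 and 5 for snoRNA genes. Solute carrier genes were marked in both at 195 of 342 and proteasome subunit genes at 38 of 40.

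Width varied most between replicates at weak peaks. The median SD of log2 width within a treatment was 0.32 in the lowest decile of the DMSO list and 0.06 in the highest.

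A limit on the IDR removed many of the strongest peaks. In the top decile, 202 of 1937 DMSO peaks (10.4%) and 270 of 1903 JNKi peaks (14.2%) had an IDR above 0.05, and among the top 100 these were 86 and 95 peaks. The highest-ranked peak of each list, at Phf23, had an IDR of 0.306 and 0.282. The cause was not tested.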
